A study of Mus musculus with 10 samples.

Results

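The genes described here read and set the level of thyroid hormone in cells: the receptors Thra and Thrb, the deiodinases Dio2 and Dio3, and Hr, the hairless corepressor whose gene is a target of the hormone. They were chosen by name, and the 3 deposited tables hold all 5 members, out of 17575 genes in at least 1 table. Thra, Thrb, Dio2 and Hr are in all 3 tables, with 16440 genes in all. Dio3 is in 1 table, so its levels could not be compared between groups. RNA was sequenced from heart tissue of 1 week old male mice, 3 Ft1ko, 4 Ft1sm22ko and 3 WT. Ft1ko mice carry a constitutive deletion of Ft1 (mouse gene Aktip), made by crossing floxed animals with mice that express Cre under the CMV promoter. Ft1sm22ko mice carry the floxed gene with Cre under the sm22 (Tagln) promoter, active in smooth muscle, so that other cells of the heart can keep an intact gene. The sources used here do not say whether WT animals carried a floxed allele or Cre. The labels name no treatment.

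Thyroid hormone reaches cells mostly as the prohormone T4. Membrane transporters carry it in, Dio2 turns it into active T3, and Dio3 inactivates both. T3 then binds Thra or Thrb, which sit on DNA with retinoid X receptors and exchange corepressors for coactivators. In the rodent heart the hormone level climbs after birth and takes part in the change from fetal to adult contractile genes, and Thra is the main receptor of cardiomyocytes.

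Each deposited table gives a gene 1 mean normalized count over the hearts of 2 groups. The 3 tables were brought to 1 scale, and the mean of each group was then solved from the 3 pair means. A group mean therefore has no spread between hearts, and no difference below was tested against replicate error. The range printed after a value is the one found when the scale of any 1 table is moved by 5% up or down. Of 9773 genes at 100 normalized counts or more in every table, 19 came out with a negative group mean, each of them in WT. All 3 ratios of a gene rest on the same pair means, and both mutants share the WT hearts, so the ratios are not independent of each other.

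Aktip, the deleted gene, had group means of 267 normalized counts in Ft1ko, 409 in Ft1sm22ko and 923 in WT. The log2 ratio over WT was -1.79 in Ft1ko (range -2.08 to -1.56) and -1.17 in Ft1sm22ko (range -1.31 to -1.06). A count per gene does not separate the deleted exons from the rest of the transcript.

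Sequence upstream of 2 members that lay on opposite sides of WT is shown for reference, Dio2 being higher and Thrb lower in both mutants. RefSeq (GRCm38.p6) gave start sites for 3 of the 5 members, Dio2, Dio3 and Thrb. Thra and Hr are not shown. The 250 bases before the start of Dio2 lie at chr12:90739039-90739288 on the minus strand, and those before the first of 2 Thrb starts at chr14:17660710-17660959 on the plus strand. Capitals mark TGACGTCA, the cAMP response element, and TATAAA, the TATA box, in Dio2, and AGGTCA, the single element that thyroid hormone receptors share with other nuclear receptors, in Thrb.
Dio2: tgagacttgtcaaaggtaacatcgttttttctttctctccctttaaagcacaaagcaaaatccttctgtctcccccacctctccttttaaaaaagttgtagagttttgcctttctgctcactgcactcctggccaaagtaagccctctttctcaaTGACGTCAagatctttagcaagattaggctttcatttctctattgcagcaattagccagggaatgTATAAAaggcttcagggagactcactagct
Thrb: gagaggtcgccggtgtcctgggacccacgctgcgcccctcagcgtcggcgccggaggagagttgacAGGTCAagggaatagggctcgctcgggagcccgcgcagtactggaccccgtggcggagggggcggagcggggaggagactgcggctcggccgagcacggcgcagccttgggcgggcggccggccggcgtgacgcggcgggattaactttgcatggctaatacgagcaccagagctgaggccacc
Both strands were searched for these letters in the same window of 32851 RefSeq start sites. TGACGTCA was found in 1.55% of the windows, TATAAA in 12.4% and AGGTCA in 14.0%. In Dio2 the TGACGTCA began 95 bases and the TATAAA 30 bases before the start, and in Thrb the AGGTCA began 184 bases before it. A direct repeat of this element with 4 bases between, the classical response element, was in 0.0152% of windows and in none of those of the members. These matches are a description of the letters.

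Thrb, the receptor gene that dominates in liver and pituitary, was the member with the lowest ratio in both mutants. Its pair means were 155 normalized counts over Ft1ko and WT hearts, 226 over Ft1sm22ko and WT hearts and 179 over both mutants, as the authors' values on their own scales. On 1 scale the group means were 86.8 in Ft1ko (range 72.4 to 99.9), 147 in Ft1sm22ko (range 137 to 158) and 353 in WT (range 340 to 368). The 3 groups kept this order with no overlap of ranges. Some other scales moved means past these ranges, as with WT at 331 where genes of at least 1000 normalized counts set the scale. The log2 ratio over WT was -2.02 in Ft1ko (range -2.35 to -1.77), and 463 of 13632 genes, or 3.4%, had a ratio as low or lower. In Ft1sm22ko it was -1.27 (range -1.40 to -1.15), with 823 genes or 6.04% as low or lower. With the tables left unscaled the sign in Ft1sm22ko turned (0.18), though 4114 of 9773 genes then had a negative mean. Between the mutants Thrb was higher in Ft1sm22ko by 0.76 on the log2 scale (range 0.46 to 1.12).

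Thra, the receptor gene of heart, bone and brain, had the opposite order. The authors' pair means were 1285 normalized counts over Ft1ko and WT hearts, 1658 over Ft1sm22ko and WT hearts and 3078 over both mutants. The solved group means were 2236 in Ft1ko (range 2121 to 2364), 1964 in Ft1sm22ko (range 1878 to 2060) and 1413 in WT (range 1285 to 1528). Both mutants lay above WT, while their own ranges nearly met. The log2 ratio was 0.66 for Ft1ko over WT (range 0.47 to 0.88), 0.48 for Ft1sm22ko over WT (range 0.30 to 0.68) and -0.19 for Ft1sm22ko over Ft1ko (range -0.30 to -0.06). None of these reached 2-fold on this scale. Ft1ko over WT did so (1.06) where genes of at least 1000 normalized counts set the scale, and unscaled tables turned the sign of Ft1sm22ko over Ft1ko (0.11). With the ratio of sums as scale Thra was past 2-fold in both mutants (2.84 in Ft1ko, 2.59 in Ft1sm22ko), with 1061 of 9773 genes negative. Many genes lay as far from WT, since 31.2% of genes had a ratio as high or higher in Ft1ko and 33.0% in Ft1sm22ko.

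As the receptor genes lay on opposite sides of WT, their balance differed widely between the groups. There were 25.8 normalized counts of Thra for each of Thrb in Ft1ko (range 23.4 to 29.4), 13.4 in Ft1sm22ko (range 13.0 to 13.8) and 4.0 in WT (range 3.72 to 4.25). To set levels of different genes side by side, counts were divided by the merged exon length in GENCODE M21, 4.61 kb for Thra and 7.40 kb for Thrb. Thra then stood at 485 normalized counts per kb in Ft1ko, 426 in Ft1sm22ko and 306 in WT. Thrb stood at 11.7 per kb in Ft1ko, 19.8 in Ft1sm22ko and 47.7 in WT. A gene count also joins the hormone binding product of Thra with its splice form that cannot bind T3. The span of Thra shares 1075 bases with that of Nr1d1, a repressor of the circadian clock on the opposite strand. The library was stranded, and whether the authors' counting used strand is not given in the sources used here. Nr1d1 itself had 811 normalized counts in Ft1ko, 720 in Ft1sm22ko and 1793 in WT, lower in both mutants where Thra was higher.

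**Figure D1:**
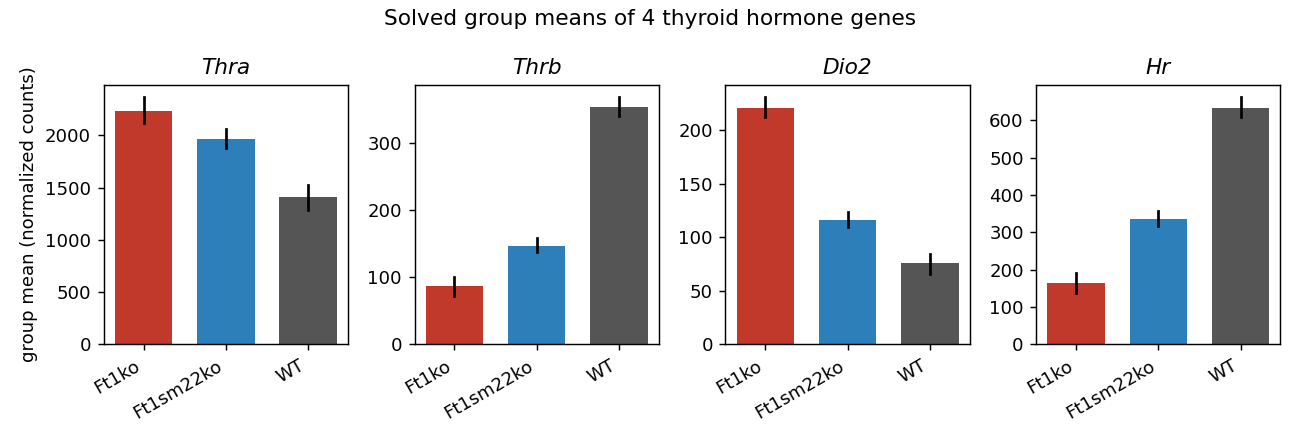
Group means of Thra, Thrb, Dio2 and Hr in normalized counts (bars, axes from 0) in Ft1ko, Ft1sm22ko and WT hearts, solved from the pair means. Black lines span the values when the scale of any 1 table moves by 5% and are not an error between hearts. Thrb and Hr are lowest in Ft1ko (86.8 and 165) and highest in WT (353 and 633), and Thra and Dio2 run the other way.

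Dio2, the selenoenzyme that makes T3 inside the cell and is abundant in brown fat, was higher in both mutants and highest in Ft1ko. The authors' pair means were 104 normalized counts over Ft1ko and WT hearts, 95 over Ft1sm22ko and WT hearts and 239 over both mutants. The solved means were 221 in Ft1ko (range 212 to 231), 117 in Ft1sm22ko (range 110 to 124) and 75.5 in WT (range 65.6 to 84.5). The 3 ranges did not overlap. The log2 ratio over WT was 1.55 in Ft1ko (range 1.33 to 1.82), where 13.9% of genes were as high or higher, and 0.63 in Ft1sm22ko (range 0.38 to 0.92), where 27.3% were. Ft1sm22ko over Ft1ko gave -0.92 (range -1.05 to -0.81), and 9.50% of genes were as low or lower. Per kb of exon, Dio2 stood at 38.0 normalized counts in Ft1ko, 20 in Ft1sm22ko and 13.0 in WT, so that its RNA was above that of Thrb in Ft1ko and below it in WT.

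Markers of fat moved with Dio2 in part. Ucp1, the uncoupling protein of brown fat, had 2047 normalized counts in Ft1ko, 482 in Ft1sm22ko and 46.1 in WT, and Adipoq, the fat hormone adiponectin, had 340, 149 and 2.43 in the same groups. The WT ranges of both include 0 (Ucp1 -24.7 to 110, Adipoq -11.8 to 15.3). Cidea, another marker of the list, ran the other way with 912 in Ft1ko, 865 in Ft1sm22ko and 1139 in WT (log2 ratios over WT -0.32 and -0.40). Of the 5 fat markers 4 were solved above the minimum, of which 2 were at least 2-fold higher in Ft1ko and Fabp4, also made by capillaries, was 2-fold lower. Among all genes 22.4% were higher and 14.0% lower by that limit in Ft1ko. The summed level of the list was 14588 in Ft1ko, 20467 in Ft1sm22ko and 23365 in WT, most of it Fabp4, and Plin1 came out at or below 0 in WT (-1.20). Their part in the Dio2 values was not tested. In heart tissue fewer cells of a type and less RNA per cell cannot be told apart.

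Dio3, the enzyme that inactivates T4 and T3 and that fetal tissue makes, had 1.42 normalized counts as the authors' mean over both mutants. No group mean was solved. Dio3os, the noncoding gene beside it on the opposite strand, had 1.99 normalized counts as the authors' mean over both mutants and 1.35 over Ft1sm22ko and WT hearts. Dio3 was therefore near the lowest value of that table (0.989), and a difference between the mutants was not detectable at this level.

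Hr, which binds thyroid hormone receptors as a corepressor and is itself induced by T3 in the rodent brain, followed Thrb. Its pair means in the authors' tables were 281 normalized counts over Ft1ko and WT hearts, 444 over Ft1sm22ko and WT hearts and 388 over both mutants. The solved means were 165 in Ft1ko (range 137 to 191), 336 in Ft1sm22ko (range 316 to 357) and 633 in WT (range 608 to 662). No ranges overlapped, and Ft1sm22ko lay between Ft1ko and WT. The log2 ratio over WT was -1.94 in Ft1ko (range -2.28 to -1.67, 3.77% of genes as low or lower) and -0.92 in Ft1sm22ko (range -1.03 to -0.81, 11.5% as low or lower). Unscaled tables turned the sign of Hr in Ft1sm22ko as well (0.58), and the mode as scale took it past 2-fold (-1.04). Hr also had the largest ratio of the 4 solved members between the mutants, 1.02 for Ft1sm22ko over Ft1ko (range 0.73 to 1.39), with 4.39% of genes as high or higher. That ratio fell short of 2-fold at 0.75 where genes of at least 1000 normalized counts set the scale.

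At a limit of 2-fold, with no test, 1 of 4 solved members was higher and 2 were lower in Ft1ko than in WT. Over all 13632 genes with at least 10 normalized counts in every table and positive group means, 22.4% were higher and 14.0% lower by that limit. In Ft1sm22ko none was higher and Thrb was lower, against 16.7% and 10% of all genes. Between the mutants Hr was higher in Ft1sm22ko and none was lower, where 4.67% of all genes were higher and 8.55% lower. With 4 genes these shares say nothing particular to the members. The median log2 ratio of all these genes was 0.13 in Ft1ko and 0.10 in Ft1sm22ko over WT, and -0.04 for Ft1sm22ko over Ft1ko.

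**Figure D2:**
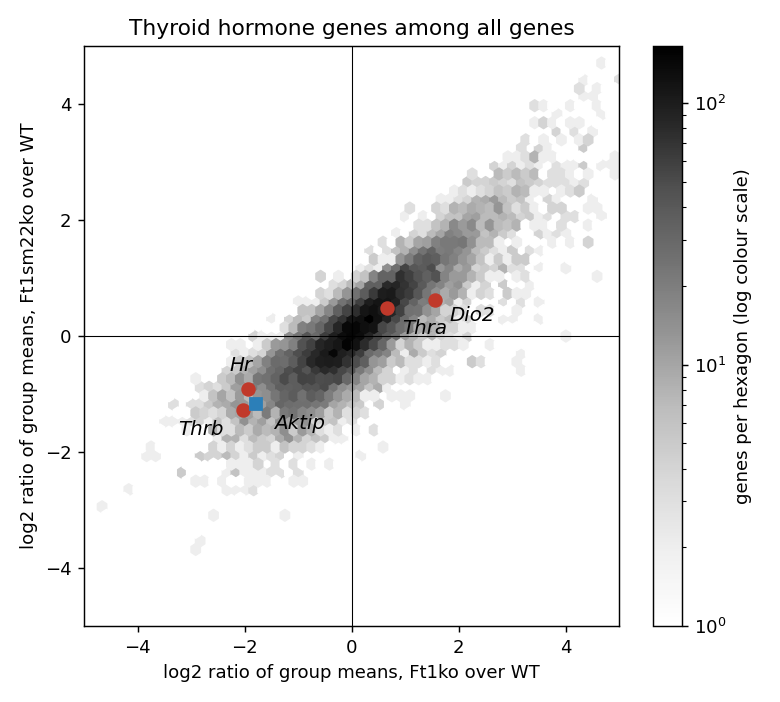
Log2 ratio of group means for Ft1ko over WT (x axis) and Ft1sm22ko over WT (y axis) over all genes with at least 10 normalized counts, as hexagons shaded by the number of genes on a log scale. Thyroid hormone genes are red circles and Aktip a blue square. Both axes share the WT hearts. Thrb (-2.02, -1.27), Hr (-1.94, -0.92) and Aktip (-1.79, -1.17) lie below 0 on both axes. Thra (0.66, 0.48) lies in the bulk, and Dio2 (1.55, 0.63) lies further from WT in Ft1ko than in Ft1sm22ko.

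Genes whose pair of ratios over WT lay nearest to a member were sought among 9754 genes with at least 100 normalized counts, over the 3 group means. Nearest to Thrb were Il15ra, a receptor chain for interleukin 15 (distance 0.017 on the log2 scale), and Sema6b, a semaphorin (0.031), and 11 genes lay within 0.1. Nearest to Hr were Mgll, a lipase for monoglycerides (0.0099), and Ndufa6, a subunit of respiratory complex I (0.025), with 6 genes within 0.1. Thra had 105 such neighbours, led by Yy1, a transcription factor (0.017), and Emp3, a membrane protein (0.017). Dio2 was under the minimum in 1 table and was not matched. With 3 group means per gene, a near match is weak evidence of likeness.

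Partners and coregulators of the receptors were at least 2-fold lower about as often as genes in general. Of 13 partner and coregulator genes 1 was at least 2-fold higher and 2 were at least 2-fold lower in each mutant, with median log2 ratios of -0.43 in Ft1ko and -0.33 in Ft1sm22ko. Of all genes 14.0% were lower by this limit in Ft1ko and 10% in Ft1sm22ko, and 22.4% and 16.7% were higher. With 13 genes the counts are no result about these partners. The lower ones were Rxrg and Ppargc1a. Rxrg, the retinoid X receptor of striated muscle, had 86.3 normalized counts in Ft1ko, 318 in Ft1sm22ko and 875 in WT, a log2 ratio over WT of -3.34 in Ft1ko (range -4.12 to -2.85) and -1.46 in Ft1sm22ko (range -1.59 to -1.35). Rxra, the widely expressed partner, chosen after its values were seen, had 1003, 1097 and 1065 in the same groups. Ppargc1a, a coactivator of oxidative genes, had 745 in Ft1ko, 1270 in Ft1sm22ko and 3217 in WT. The paper reports the opposite by Q-PCR, with this gene significantly higher in both mutants, and the conflict is not settled here. Its Q-PCR used sex balanced populations, while the sequenced hearts came from males. On the corepressor side Tbl1x, a subunit of the corepressor complex, was the gene above 2-fold, with 516 in Ft1ko, 595 in Ft1sm22ko and 183 in WT. Its relative Tbl1xr1 had log2 ratios of 0.87 and 0.25, both short of 2-fold.

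Transporters of the hormone did not share a direction. Of 5 listed, 4 were in all tables, and 2 in Ft1ko and 1 in Ft1sm22ko were at least 2-fold higher than in WT, with none lower by that limit. Over all genes 22.4% were higher in Ft1ko and 16.7% in Ft1sm22ko, and with 4 genes nothing particular to the transporters follows. The median log2 ratio over WT was 0.59 in Ft1ko and 0.37 in Ft1sm22ko. Slc7a5, a large amino acid transporter that also carries the hormone, had 389 normalized counts in Ft1ko, 327 in Ft1sm22ko and 108 in WT. Its log2 ratio was 1.84 in Ft1ko (range 1.53 to 2.24) and 1.59 in Ft1sm22ko (range 1.29 to 1.99). Slc7a8, a related amino acid transporter chosen after its values were seen, had 184 in Ft1ko, 100.4 in Ft1sm22ko and 76.1 in WT. Slc16a10, a carrier of aromatic amino acids and of the hormone, lay below WT with 243, 317 and 385 in the same groups.

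Genes that act on the hormone or on the synthesis of selenoproteins, the class to which deiodinases belong, were mixed. Of 8 such genes 5 passed the minimum, of which none was at least 2-fold higher in either mutant, 2 were lower in Ft1ko and 1 was lower in Ft1sm22ko. Among all genes 22.4% were higher and 14.0% lower by this limit in Ft1ko, and 16.7% and 10% in Ft1sm22ko. With 5 genes the counts are no result about this list. The minimum took out the 3 genes lowest in WT, all of them higher in the mutants, so the absence of higher genes comes from it. Secisbp2, which binds the selenocysteine element of deiodinase messages, had 389 normalized counts in Ft1ko, 372 in Ft1sm22ko and 1070 in WT, a log2 ratio of -1.46 (range -1.68 to -1.28) and -1.52 (range -1.69 to -1.38). Pstk, a kinase that helps to load selenocysteine on its transfer RNA, had ratios of -1.48 and -0.80. Eefsec, the elongation factor for selenocysteine, had 0.94 and 0.34, and Sephs2, which makes the selenium donor, had 0.84 and 0.76. The 3 genes under the minimum were Dio1, the deiodinase of liver and kidney, with 11.4 normalized counts in Ft1ko, 1.58 in Ft1sm22ko and 0.827 in WT, Ttr, the plasma carrier transthyretin, with 15.6, 55.5 and 2.72, and Crym, a T3 binding protein of the cytosol, with 17.9, 16.3 and -0.094.

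Heart genes that T3 is known to raise were lower in Ft1ko as a list. Of 10 such genes 9 were at least 2-fold lower and 10 were below 0, with a median log2 ratio of -2.25. By this limit 14.0% of all genes were lower in Ft1ko and 10% in Ft1sm22ko. The list was written with earlier results of these data known, so its counts describe the listed genes and are no test. In Ft1sm22ko 7 of the 10 listed genes were at least 2-fold lower and 9 below 0, with a median of -1.22. The exception was Atp2a2, the calcium pump of the sarcoplasmic reticulum, chosen after its values were seen, at 0.11 in Ft1sm22ko and -1.02 in Ft1ko. Hcn2, a pacemaker channel, had 143 normalized counts in Ft1ko (range 90.4 to 191), 593 in Ft1sm22ko and 1220 in WT. Kcnd2, a potassium channel of repolarisation, had 36.9 in Ft1ko (range 24.7 to 47.9), 124 in Ft1sm22ko and 297 in WT. Slc2a4, the insulin dependent glucose transporter, had 843, 1926 and 4575 in these groups. Between the mutants all 10 were above 0 and 6 were at least 2-fold higher in Ft1sm22ko, with a median of 1.13. The share of all genes higher by this limit between the mutants was 4.67%. Adult troponin I, Tnni3, had log2 ratios over WT of -2.63 in Ft1ko and -1.49 in Ft1sm22ko.

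Heart genes that T3 is known to lower did not share a direction. Of 6 such genes 2 were at least 2-fold higher and 2 at least 2-fold lower in Ft1ko (median -0.08), and 2 and 1 in Ft1sm22ko (median 0.48). By this limit 22.4% of all genes were higher and 14.0% lower in Ft1ko, and 16.7% and 10% in Ft1sm22ko. With 6 genes the counts are no result about this list. Tnni1, the fetal troponin I, had 5125 normalized counts in Ft1ko and 5600 in Ft1sm22ko, against a WT mean of 179 whose range, -153 to 479, includes 0. Myh7, the slow myosin heavy chain of the fetal ventricle, had 2352 in Ft1ko, 4483 in Ft1sm22ko and 741 in WT, a log2 ratio of 1.67 (range 1.20 to 2.30) and 2.60 (range 2.21 to 3.15). The paper reports the opposite direction for Myh7 in Ft1ko, lower than WT by RNAseq and by Q-PCR, the latter in sex balanced populations. The solved Myh7 means conflict with that report, and the conflict is not settled here. Set against Myh6, the adult chain that T3 induces, Myh7 came to 0.0115 counts per Myh6 count in Ft1ko (range 0.0104 to 0.0130), 0.0127 in Ft1sm22ko (range 0.0121 to 0.0133) and 0.000787 in WT (range 0.000565 to 0.000981). Pln, the inhibitor of the calcium pump, ran the other way with 9155 in Ft1ko, 41560 in Ft1sm22ko and 43496 in WT. Adcy6, an adenylyl cyclase, had ratios of -1.28 in Ft1ko and -1.08 in Ft1sm22ko.

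Targets that T3 raises in other tissues were lower or near WT. Of 6 genes none was at least 2-fold higher and 2, Ucp3 and Klf9, were at least 2-fold lower in each mutant, with medians of -0.75 in Ft1ko and -0.50 in Ft1sm22ko. Among all genes 22.4% were higher and 14.0% lower by this limit in Ft1ko, and 16.7% and 10% in Ft1sm22ko. With 6 genes nothing particular to these targets follows. Ucp3, a mitochondrial carrier of muscle, had 181 normalized counts in Ft1ko (range 44.6 to 304), 1308 in Ft1sm22ko and 3436 in WT. Klf9, a transcription factor that both T3 and glucocorticoids induce, had 745, 820 and 3273, nearly alike in both mutants (Ft1sm22ko over Ft1ko 0.14, range -0.20 to 0.52). Me1, malic enzyme, had ratios of -0.81 and -0.26, and Thrsp, a gene of fat synthesis, of -0.69 and -0.73.

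**Figure D3:**
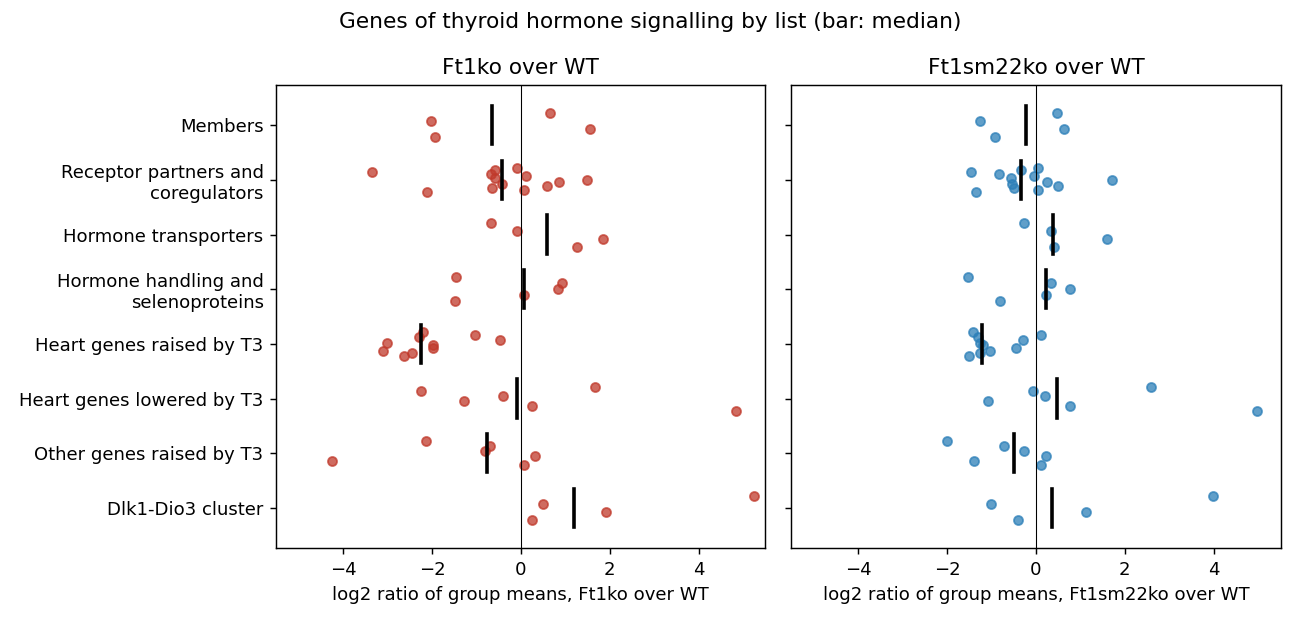
Log2 ratio of group means for Ft1ko over WT (left) and Ft1sm22ko over WT (right), 1 point per gene with at least 10 normalized counts, by list of thyroid hormone genes, with the list median as a black bar. The genes that T3 raises in heart sit at medians of -2.25 in Ft1ko and -1.22 in Ft1sm22ko, and the transporters at 0.59 and 0.37. The lists were written with earlier results of these data known.

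Markers of cardiomyocytes were lower in the mutants along with Thrb, Hr and the genes that T3 raises in heart. All 8 markers were below 0 in both mutants, 8 of them at least 2-fold lower in Ft1ko and 4 in Ft1sm22ko. Among all genes 14.0% were lower by this limit in Ft1ko and 10% in Ft1sm22ko. Like the other lists, this one was written with earlier results of these data known. The summed level of the markers was 442605 normalized counts in Ft1ko, 895729 in Ft1sm22ko and 2060080 in WT. As a log2 ratio of sums this was -2.22 and -1.20, beside -2.02 and -1.27 for Thrb and -1.94 and -0.92 for Hr. The markers share 2 genes, Myh6 and Tnni3, with the list of heart genes that T3 raises, and Myh6 alone gave 941868 of the WT sum, so the likeness of both lists is in part built in. Without the shared genes, a count chosen after seeing the data, 7 of 8 genes that T3 raises and 6 of 6 markers were at least 2-fold lower in Ft1ko, and 5 of 8 and 2 of 6 in Ft1sm22ko. The medians were then -2.14 and -2.30 in Ft1ko, and -1.11 and -0.59 in Ft1sm22ko. Of 6 fibroblast markers 4 were at least 2-fold higher in each mutant. The list summed to 95814 in Ft1ko, 92069 in Ft1sm22ko and 23961 in WT. The other markers were Dcn, with log2 ratios of -0.09 in Ft1ko (range -0.36 to 0.17) and 0.84 in Ft1sm22ko, and Pdgfra, with 0.50 and 0.86. Of 4 epicardial markers 3 were at least 2-fold higher in each mutant, and the list summed to 3590, 4272 and 540. Wt1, the other marker, had 352, 522 and 385, so it made up most of the WT sum. The WT ranges of Upk3b (-69.6 to 127) and Upk1b (-5.22 to 41.2) include 0, and that of Msln is 12.6 to 182. The share of all genes higher by this limit was 22.4% in Ft1ko and 16.7% in Ft1sm22ko. Endothelial sums were 17132, 20522 and 17150, with 0 of 4 markers past 2-fold. Smooth muscle sums were 19305, 16992 and 20857, but 3 of 5 markers were at least 2-fold higher and 1 lower in Ft1ko, so that the median (1.55) and the log2 ratio of sums (-0.11) differ in sign. Macrophage sums were 1007, 858 and 984, with 2 of 3 markers at least 2-fold higher in Ft1ko. Lung epithelium and thymocytes are cell types of other organs than the heart. Lung epithelium markers summed to 69732 in Ft1ko, 4881 in Ft1sm22ko and 269 in WT, and those of thymocytes to 6838, 203 and 39.5. In WT 6 of 7 lung and 3 of 6 thymocyte markers had a negative mean and entered that sum as 0. Neuron and glia markers summed to 857, 633 and 305, and skeletal muscle markers to 104, 61.8 and 160. The part of these cell types in the thyroid hormone genes was not tested.

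**Figure D4:**
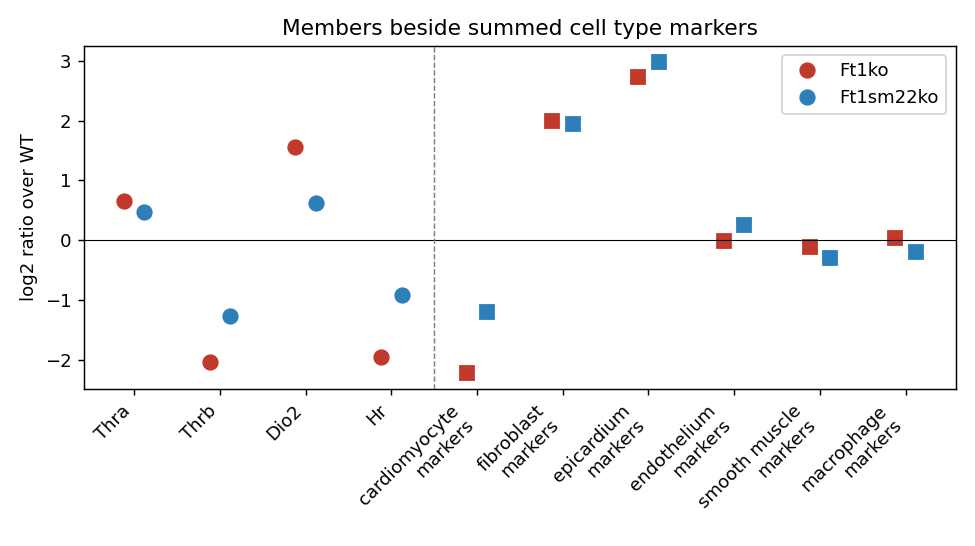
Log2 ratio over WT (y axis) of 4 thyroid hormone genes (circles, left of the dashed line) and of the summed level of 6 lists of cell type markers (squares), in Ft1ko (red) and Ft1sm22ko (blue). Among the 6 lists drawn, Thrb and Hr lie near the cardiomyocyte markers (-2.22 and -1.20), and Thra and Dio2 lie between the endothelial and the fibroblast markers. Markers of lung, thymocytes, fat, skeletal muscle and neuron and glia are not drawn. Those of neuron and glia lie at 1.49 in Ft1ko and 1.05 in Ft1sm22ko.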

How the data were processed

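Hearts of 3 Ft1ko, 4 Ft1sm22ko and 3 WT mice were sequenced, with groups taken from the labels. Per the paper and the labels the authors made libraries with the Universal Plus mRNA-Seq kit, aligned reads with STAR to a reference named hg38 (the gene names are mouse symbols), and used StringTie, HTSeq and DESeq2. The signal used here is the authors' deposited mean of counts divided by size factors over the hearts of 2 groups. Values per heart were not analysed here, so the depth of each library is unknown, and the pair means sum to 12855800, 17494300 and 19300100 normalized counts. The other 5 columns of each table hold the authors' own fold changes, errors, statistics and p-values and were not used, and 0 columns of other samples were found.

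The tables were scaled by the median ratio over 9773 genes with at least 100 normalized counts, and the group means were solved from 3 linear equations weighted by the number of hearts. The steps were tested on simulated data, in which 200 genes were changed by known folds and the rest were alike in all groups. That simulation cannot show how well the scale holds where many genes differ, as they do here. No test was made, since values per heart were not analysed here and the authors' test columns were set aside, so 2-fold is a limit of size. The 7 pathway lists and 11 marker lists were written with earlier results of these data known, as were the members. Named genes are the members, Aktip, neighbours, up to 4 genes per list with the largest ratio over WT at 100 normalized counts or more, the 2 nearest patterns per member, and marker genes a clause needs. Gene names matched RefSeq (GRCm38.p6) for 95.3% of genes, and exon lengths are from GENCODE M21. Alternatives were other scales of the tables, a pseudocount, other minimums and a 1.5-fold limit. Python 3.11.15, numpy 2.4.6, pandas 2.3.3, scipy 1.17.1 and matplotlib 3.10.9 were used. One gene of the transporter list is not reported here, and the list was counted without it.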

Additional observations from a re-analysis of the deposited data

How the results depend on the processing

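All 12 ratios of Thra, Thrb, Dio2 and Hr kept their sign with the scale set by genes of at least 10 or 1000 normalized counts, by the mode, by the scale with the fewest negative means, by the ratio of sums and with 1 count added. Under the scale with the fewest negative means, which left 0 of 9773 genes negative, all 12 stayed within the 5% range. That scale was sought only near the main one, so its agreement is in part built in. The range held 12 ratios with genes of at least 10 counts, 6 with genes of at least 1000, 7 with the mode and 2 with the ratio of sums. Of the 12 group means of these members the range held 12, 4, 6 and 0 under the same scales. With genes of at least 1000 counts the log2 ratios of Ft1ko over WT were 1.06 for Thra, -1.68 for Thrb, 2.01 for Dio2 and -1.56 for Hr, and those of Ft1sm22ko over WT were 0.79 for Thra and 1.08 for Dio2. With the mode they were 0.36 for Thra and 1.20 for Dio2 in Ft1ko, and 0.20 for Thra, 0.24 for Dio2 and -1.04 for Hr in Ft1sm22ko. With genes of at least 1000 counts Ft1sm22ko over Ft1ko was 0.75 for Hr. So the 2-fold call depends on these scales for Thra in Ft1ko, for Dio2 and Hr in Ft1sm22ko and for Hr between the mutants, and on the ratio of sums below also for Thra and Thrb in Ft1sm22ko and Hr in Ft1ko. With the ratio of sums, which left 1061 genes negative, Ft1ko over WT was 2.84 for Thra, -1.06 for Thrb, 9.01 for Dio2 and -0.84 for Hr, Ft1sm22ko over WT was 2.59, -0.65, 8.23 and -0.26, and Ft1sm22ko over Ft1ko was -0.78 for Dio2 and 0.58 for Hr. Without scaling, which left 4114 genes negative, Ft1ko over WT was -1.06 for Thrb and -0.69 for Hr, Ft1sm22ko over WT turned to 0.18 for Thrb and 0.58 for Hr, and Ft1sm22ko over Ft1ko turned to 0.11 for Thra and was 1.24 for Thrb and -0.35 for Dio2. The ratios of Thra and Dio2 over WT could not be solved without scaling, since the WT mean was negative. The tables then hold unlike units by construction.

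Counts of genes past the limit moved with the minimum and the limit. With a minimum of 100 normalized counts 1438 genes were higher in Ft1ko and 1082 higher and 889 lower in Ft1sm22ko than in WT, and 296 were lower in Ft1sm22ko than in Ft1ko, against 3055, 2272, 1364 and 1166. With no minimum the last was 2035. At 1.5-fold 4594 were higher and 3251 lower in Ft1ko, 3936 and 2755 in Ft1sm22ko, and 1715 and 2376 between the mutants. No paired analysis was possible because the tables give 1 mean per pair of groups and no value per replicate, and leaving out a replicate was not run for the same reason.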

Other observations

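Dio3 lies in an imprinted cluster with Dlk1, a fetal growth regulator, and the noncoding genes Meg3 and Rian. Dlk1 had 995 normalized counts in Ft1ko and 411 in Ft1sm22ko, against a WT mean of 26.2 whose range, -14.4 to 63.0, includes 0. Rian had 1290 in Ft1ko, 747 in Ft1sm22ko and 343 in WT, with log2 ratios over WT of 1.91 (range 1.64 to 2.26) and 1.12 (range 0.83 to 1.49). Meg3 had 5279, 1865 and 3752 in the same groups, so that it lay above WT in Ft1ko (0.49, range 0.37 to 0.63) and below it in Ft1sm22ko (-1.01, range -1.24 to -0.80). These differences were not tested. Rarb, the retinoic acid receptor next to Thrb on chromosome 14, had ratios of -0.69 in Ft1ko and -0.18 in Ft1sm22ko.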
